A study of Mus musculus with 17 samples.

Results

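The subject is the difference between a pair of mouse genotypes that carry the MMTV-rtTA transgene, AROM and CERM, and a pair that do not, WT and BRCA. Of 11565 genes analysed, 1501 were members, which means that all 4 values of one side exceeded all 4 values of the other. AROM and CERM were higher for 663 of them and lower for 838. The width of the space between the sides, from the lowest value of the higher side to the highest value of the lower side on the log2(FPKM + 1) scale, is called the gap, and the members are described in its order.

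Polyadenylated RNA of whole mammary glands was sequenced from nulliparous female C57Bl/6 mice of 4 genotypes. AROM mice carried tet-op-CYP19A1 and MMTV-rtTA, and CERM mice tet-op-Esr1 and MMTV-rtTA, so each had a different tetracycline-controlled gene and the same activator. BRCA mice were Brca1fl11/fl11/MMTV-Cre/p53+/-, with a floxed Brca1, Cre in the mammary gland and a single intact Trp53 allele in the whole body, and WT mice were wild type. The labels give 17 libraries, 5 of AROM, 5 of CERM, 4 of BRCA and 3 of WT; they name no age and no treatment, so whether a tetracycline was given is not known here. The deposited table holds 8 pooled columns, 1 for each genotype and read layout (single-end or paired-end), and these columns are the values compared. The labels do not tie libraries to animals, so the 2 columns of a genotype may share animals and cannot be taken as independent. The columns are no replicates and the genes were chosen by their values, so no p-value, SD or standard error is given, and every difference below describes these columns.

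The reverse tetracycline transactivator, rtTA, is a bacterial repressor domain fused to a viral activation domain; bound to doxycycline, it switches on genes placed behind tet operator sequences. The MMTV promoter, from mouse mammary tumour virus, drives it mainly in mammary epithelium, which limits the transgenes to the cells where that promoter is active. The products of both operator-linked genes act in estrogen signalling: aromatase makes estrogens from androgens, and estrogen receptor alpha is the nuclear receptor that responds to them. The mammary gland is a tree of luminal and basal epithelium in a fat pad, with vessels, nerves, immune cells and, at its edge, body wall muscle.

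Facts that touch every value come first. Over the genes analysed, the single-end columns had medians from 9.38 to 10.03 FPKM, and the paired-end ones medians from 7.84 to 9.72. The table holds no counts, so the depth of a column is unknown. Across genes, the log2 values of a genotype's 2 columns had Pearson correlations between 0.9599 and 0.967, a description in which genes are not replicates. Columns of different genotypes within a layout had correlations from 0.921 to 0.977, so the columns of a genotype were not always the most alike. Both WT columns carried repeating decimals, as means of 3 values would, in 38.2% of single-end and 37.2% of paired-end values above 0, whereas the labels give 2 single-end and 1 paired-end WT library. Which libraries the WT columns hold was not settled, and the counts without them are given in the closing section.

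The engineered genes were compared as a check of the labels. In the order AROM single-end, AROM paired-end, CERM single-end and CERM paired-end, then WT and BRCA likewise, which is kept below, Esr1 was at 8.41, 7.87, 8.49 and 8.41 FPKM in the AROM and CERM columns and at 7.27, 6.89, 6.59 and 6.48 in those of WT and BRCA. All 4 AROM and CERM values were above the other 4, with a gap of 0.10, but AROM and CERM were close to each other, so the Esr1 value does not set the Esr1 transgenic mice apart. Mouse Cyp19a1 was at 0.0591, 0.0502, 0 and 0 FPKM against 0, 0, 0 and 0; the CYP19A1 of the label is the human symbol, and the mouse locus is no measure of a human transgene. Trp53 was at 29.5, 20.9, 27.997 and 24.98 FPKM in the AROM and CERM columns and at 41.1, 34.5, 12.3 and 12.1 in those of WT and BRCA, lowest in BRCA. Brca1 was at 0.881, 0.536, 0.661 and 0.702 FPKM against 1.13, 0.851, 3.28 and 3.29, highest in BRCA and below the expression filter; how much of it came from the floxed exon cannot be read from the table. rtTA and Cre have no row of their own in the table, so the genotypes are taken from the labels.

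The members made up 12.98% of the genes analysed. By direction, AROM and CERM were higher for 5.73% and lower for 7.25% of all genes. These shares are the background for counts of list members over all 8 columns. With 1 column left out, between 5.92% and 10.1% of all genes were higher and between 7.56% and 16.9% lower. Without WT single-end the shares were 9.37% and 7.65%, and without WT paired-end 7.19% and 16.9%. Without AROM single-end they were 5.92% and 11.1%, and without AROM paired-end 10.1% and 7.70%. Without CERM single-end they were 7.89% and 11.7%, and without CERM paired-end 8.28% and 8.93%. Later counts with a column left out are to be read beside these shares. Without both WT columns the shares were 19.9% and 33.7%, and without both BRCA columns 10.3% and 10.8%. They were 8.45% and 9.4% under median-ratio scaling and 6.5% and 11.3% after quantile normalization. Where only the single-end columns had to be separated, the shares were 17.3% and 23.9%, and for the paired-end columns 15.3% and 22.3%. Among loci without a gene name they were 2.61% and 4.7% over all columns. Most gaps were narrow: the median was 0.09 for the higher and 0.09 for the lower members. A gap of at least 0.5, which is about 1.4-fold in FPKM + 1 between the nearest values, was found for 10 higher and 30 lower genes. The median difference between the means of the sides was 0.48 (log2) for the higher and -0.47 for the lower members, beside -0.04 over all genes analysed. The higher members were the more abundant transcripts, with a median of 16.7 FPKM, against 5.75 for the lower ones and 9.18 for all genes.

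The widest gap on the higher side was that of Unc5a, a receptor for the guidance cue netrin. Unc5a was at 4.45, 9.31, 5.73 and 3.94 FPKM in the AROM and CERM columns and at 0.859, 0.664, 0.662 and 0.558 in those of WT and BRCA, a gap of 1.41. Fbp2, the muscle form of the gluconeogenic enzyme fructose-bisphosphatase, was at 31.5, 27.6, 39.96 and 27.1 FPKM in the AROM and CERM columns and at 9.03, 12.4, 13.1 and 11.7 in those of WT and BRCA, a gap of 1.00. Inmt, an amine N-methyltransferase, was at 19.6, 12.9, 35.3 and 33.3 FPKM in the AROM and CERM columns and at 5.74, 5.37, 6.28 and 5.205 in those of WT and BRCA, a gap of 0.94, and its CERM values were above its AROM values in both layouts. In Fbp2 and Inmt the WT and BRCA columns lay close together and the AROM and CERM columns stood clear of them. Unc5a, and Klk1b22 described next, reached 1 FPKM in the AROM and CERM columns alone. They passed the expression filter only through that side, so their sides could not overlap. Klk1b22, of a family of near-identical kallikrein genes that may share reads, had the second widest gap; it was listed at 0 in both WT columns and reached at most 0.256 FPKM in BRCA, against 1.89 to 3.39 FPKM in AROM and CERM.

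The next genes of the higher side were enzymes, phosphatases and regulators at moderate levels. Rxrg, the retinoid X receptor gamma, a nuclear receptor partner, was at 18.5, 20.8, 17.6 and 14.8 FPKM in the AROM and CERM columns and at 8.88, 10.2, 9.94 and 9.66 in those of WT and BRCA. Hey1, a transcriptional repressor induced by Notch, was at 9.07, 5.58, 10.03 and 8.69 FPKM in the AROM and CERM columns and at 2.82, 2.596, 3.61 and 3.83 in those of WT and BRCA, and it was the sole member of the luminal progenitor list on this side. Nnat, the imprinted gene of the membrane protein neuronatin, was at 548, 692, 287 and 402 FPKM in the AROM and CERM columns and at 189.7, 158, 208 and 211 in those of WT and BRCA. In each of these 3 genes the sides did not overlap, and Nnat was higher in AROM than in CERM in both layouts. For the genes that follow the range over the AROM and CERM columns is given first and that over WT and BRCA second, as in all later ranges. Dusp10, a phosphatase that inactivates p38 and JNK kinases, lay between 12.1 and 14.6 FPKM against between 5.84 and 8.37. The phosphatase gene Dusp23 lay between 11.2 and 15.8 FPKM against between 5.47 and 6.87 and the aldo-keto reductase gene Akr1e1 between 13.005 and 15.3 FPKM against between 4.86 and 8.68. Apol6, of the apolipoprotein L family, lay between 49.9 and 75.9 FPKM against between 29.1 and 33.1. Also among the 15 widest gaps were Fbxo44, encoding a substrate receptor of a ubiquitin ligase, between 1.695 and 4.07 FPKM against between 0.493 and 0.692, and Rasgef1c, between 1.503 and 2.33 FPKM against between 0.478 and 0.5998. Both passed the filter only through AROM and CERM, so their sides could not overlap. Eepd1 lay between 43.9 and 53.1 FPKM against between 24.2 and 31.8, and Rpl39l, a ribosomal protein paralog that may share reads with its parent, between 4.14 and 7.08 FPKM against between 1.94 and 2.52.

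On the lower side the widest gap of all members was that of Glycam1, a secreted mucin-like glycoprotein made by mammary epithelium and by lymph node vessels. Glycam1 was at 4.99, 5.501, 65.5 and 37.2 FPKM in the AROM and CERM columns and at 518, 450.2, 512 and 458 in those of WT and BRCA, a gap of 2.76. WT and BRCA were near equal, and AROM was below CERM in both layouts. Ccl20, the chemokine that draws CCR6-bearing lymphocytes and dendritic cells, was at 0.0861, 0.0581, 0.1104 and 0.04502 FPKM in the AROM and CERM columns and at 2.36, 2.37, 6.07 and 5.06 in those of WT and BRCA. Its AROM and CERM values were near 0 in all 4 columns. Msln, which encodes the surface protein mesothelin, was at 0.159, 0.218, 0.214 and 0.236 FPKM in the AROM and CERM columns and at 2.55, 2.94, 3.03 and 2.93 in those of WT and BRCA. Ccl20 and Msln reached 1 FPKM in the WT and BRCA columns alone, so their sides could not overlap. Sftpd, encoding surfactant protein D, a collectin of mucosal surfaces, was at 0.649, 0.426, 2.59 and 1.82 FPKM in the AROM and CERM columns and at 7.74, 8.15, 26.6 and 26.6 in those of WT and BRCA, and BRCA stood above WT.

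Several further genes with wide gaps are known from lymphoid or myeloid cells. Cd4, the coreceptor of helper T cells, was at 1.05, 0.846, 0.989 and 0.793 FPKM in the AROM and CERM columns and at 3.08, 2.75, 6.21 and 6.2004 in those of WT and BRCA. Spib, an Ets factor of B cells and plasmacytoid dendritic cells, was at 0.272, 0.188, 0.279 and 0.229 FPKM in the AROM and CERM columns and at 1.49, 1.38, 6.37 and 6.61 in those of WT and BRCA. In both, BRCA was the highest genotype and AROM and CERM were alike. Clec4n, the fungal receptor dectin-2 of myeloid cells, lay between 1.48 and 3.94 FPKM against between 6.88 and 11.5, and Il23a, a subunit of interleukin 23, between 0.265 and 0.531 FPKM against between 1.403 and 1.87. Spib and Il23a reached 1 FPKM in the WT and BRCA columns alone, so their sides could not overlap. Apobec3, a cytidine deaminase that restricts retroviruses, MMTV among them, was at 13.1, 8.88, 13.2 and 10.9 FPKM in the AROM and CERM columns and at 28.9, 22.8, 21.9 and 21.7 in those of WT and BRCA, with a gap of 0.68. Vars, the valyl-tRNA synthetase gene, was at 13.2, 12.2, 13.4 and 13.04 FPKM in the AROM and CERM columns and at 22.8, 23.7, 32.2 and 31.9 in those of WT and BRCA; its 4 AROM and CERM values differed little.

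Other genes with wide gaps encode secreted or junction proteins. Expi, a protease inhibitor with a whey acidic protein domain, was at 249, 131, 469 and 289.6 FPKM in the AROM and CERM columns and at 1023, 778, 1642 and 1461 in those of WT and BRCA, and its relative Wfdc3 lay between 1.74 and 7.84 FPKM against between 13.5 and 18.5. Emid1, a gene of an extracellular protein, lay between 4.55 and 9.09 FPKM against between 15.3 and 23.2. Cldn7, a tight junction claudin, lay between 9.79 and 20.1 FPKM against between 32.8 and 38.3.

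Markers of luminal epithelium, the cells that line the ducts and make milk, lay on the lower side. Of their 14 analysed genes, 8 were non-overlapping and lower in AROM and CERM, beside 7.25% of all genes, and none was higher. Cdh1, the epithelial cadherin, was at 22.6, 13.2, 34.6 and 30.2 FPKM in the AROM and CERM columns and at 55.4, 45.000, 58.1 and 59.3 in those of WT and BRCA. Epcam, the epithelial cell adhesion molecule, was at 73.3, 41.8, 97.9 and 90.3 FPKM in the AROM and CERM columns and at 147, 123, 173 and 170.3 in those of WT and BRCA. Each AROM value was below both CERM values. The protease inhibitor gene Spint2 lay between 43.6 and 95.2 FPKM against between 118 and 152, and the others were Cldn3, Krt8, Esrp1 and Ehf. The list's median difference was -1.11 (log2), -0.91 in the single-end and -1.27 in the paired-end columns, and all 14 differences were below 0. Summed over the list, FPKM ranged from 327 to 719 in AROM and CERM and from 866 to 1146 in WT and BRCA, and no marker found was at 0 in every column, so luminal RNA was present in all. In whole glands, fewer cells of a type and less RNA per cell cannot be told apart. Without the paired-end WT column, 13 of the genes were non-overlapping, and without other single columns between 8 and 10.

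The luminal progenitor list, of cells that give rise to milk-secreting alveoli, had 3 of 8 genes lower and 1 higher. Cd14, a receptor for bacterial lipopolysaccharide, lay between 25.5 and 44.97 FPKM against between 63.3 and 93.4. Gabrp, a subunit of the GABA receptor, lay between 1.54 and 2.82 FPKM against between 4.03 and 11.2. Elf5, the Ets factor that directs alveolar differentiation, was at 38.99, 21.1, 83.6 and 59.5 FPKM in the AROM and CERM columns and at 108, 89.997, 98.3 and 95.8 in those of WT and BRCA. AROM held the lowest Elf5 values in both layouts, and CERM single-end came near WT paired-end. The list's median difference of -0.82 was -0.26 without both BRCA columns.

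Milk protein genes were not uniformly placed. Of 14 analysed, 2, Glycam1 and Wap, were non-overlapping and lower. Wap, the whey acidic protein, was at 3.95, 57.1, 109 and 61.8 FPKM in the AROM and CERM columns and at 143, 132, 225 and 206 in those of WT and BRCA; the single-end AROM value was far below the other 3 of its side. The median difference over the list was -0.93. Without the single-end CERM column 5 genes were non-overlapping and lower, beside 11.7% of all genes. Relative to each gene's mean over the 8 columns, list medians were -1.20 (single-end) and -1.22 (paired-end) in AROM and 0.57 and 0.06 in CERM. They were 0.83 and 0.64 in WT and 0.24 and 0.16 in BRCA, so CERM lay above BRCA in the single-end columns. Csn2, the beta casein gene, had a difference of -1.40, and Lalba, the alpha-lactalbumin gene, one of 0.46, but the sides overlapped for both. Among basal and myoepithelial genes, 1 of 11, Krt15, was lower (between 2.57 and 5.11 FPKM against between 6.98 and 7.598), and the median difference of -0.11 had no stable sign, at 0.07 in the single-end columns, -0.23 in the paired-end ones and 0.09 without the paired-end AROM column.

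**Figure D1:**
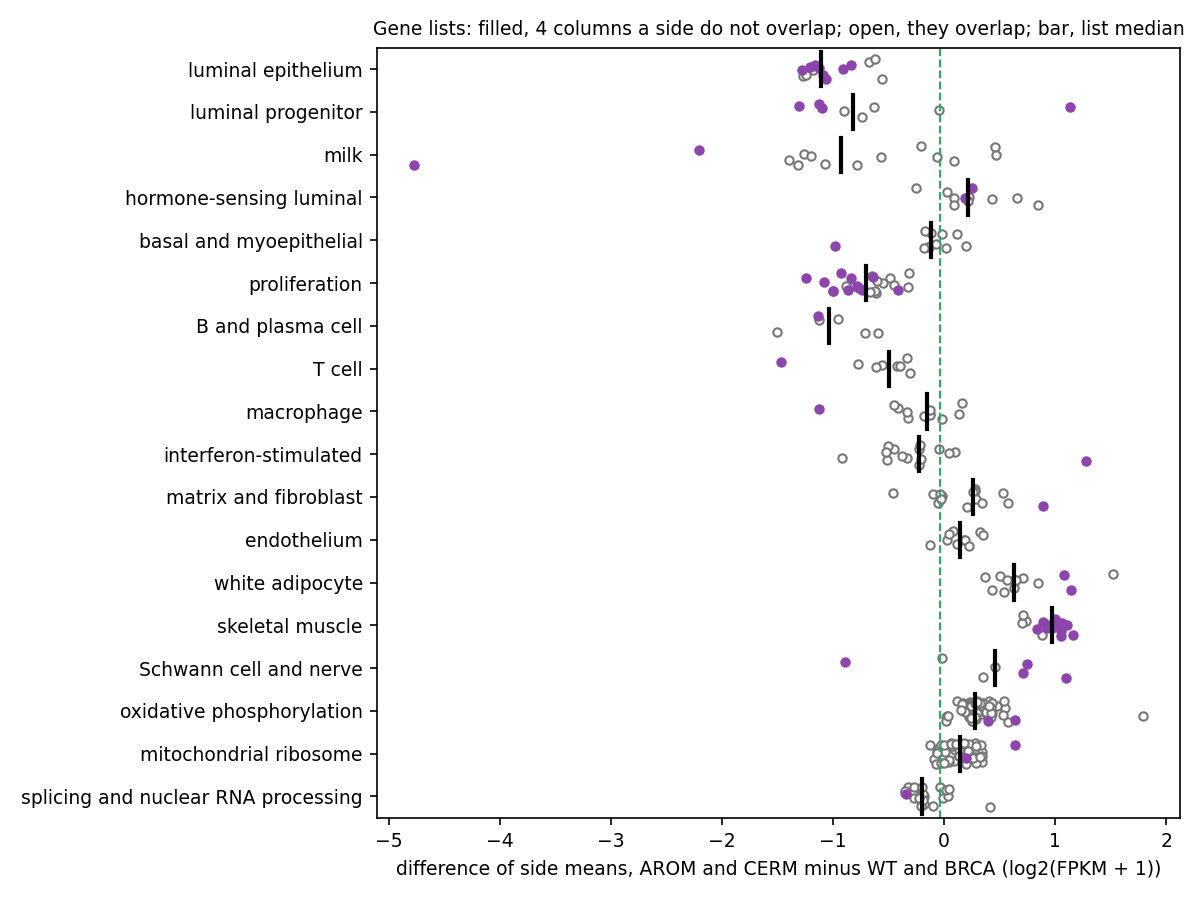
Difference of side means (log2(FPKM + 1), AROM and CERM minus WT and BRCA) for each analysed member of 18 gene lists, with filled points for genes whose sides do not overlap, open points for those that do, a bar at each list's median and a dashed line at the median of all genes, -0.04. Luminal epithelium (median -1.11) and proliferation (-0.70) lie to the left, and skeletal muscle (0.97) and white adipocyte genes (0.63) to the right.

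Genes of cell division lay on the lower side. Of 24 proliferation genes analysed, 12 were non-overlapping and lower, beside 7.25% of all genes, none was higher, and all 24 differences of means were below 0, with a median of -0.70. Many mitotic genes share promoter elements, the cell cycle homology region (CHR, TTTGAA) and the CCAAT box bound by NF-Y, so the promoters of 3 of these genes are shown. The sequences are the 250 bases before the start site in RefSeq (GRCm38.p6, a later build than the mm9 of the deposited values), 5′ to 3′, with both elements in capitals on either strand.
Ccnb2 (chr9:70421555-70421804, minus strand): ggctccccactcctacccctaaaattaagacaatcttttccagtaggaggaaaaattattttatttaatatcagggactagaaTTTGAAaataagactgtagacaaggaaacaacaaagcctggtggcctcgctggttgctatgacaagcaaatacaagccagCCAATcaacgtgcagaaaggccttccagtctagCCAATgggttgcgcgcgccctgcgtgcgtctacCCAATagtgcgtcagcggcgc
Cdk1 (chr10:69352913-69353162, minus strand): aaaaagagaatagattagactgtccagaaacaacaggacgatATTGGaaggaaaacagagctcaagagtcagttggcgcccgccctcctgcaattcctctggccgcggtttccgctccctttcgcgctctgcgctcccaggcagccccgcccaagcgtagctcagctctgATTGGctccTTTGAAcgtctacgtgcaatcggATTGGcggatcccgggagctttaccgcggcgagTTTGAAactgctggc
Kif11 (chr19:37376132-37376381, plus strand): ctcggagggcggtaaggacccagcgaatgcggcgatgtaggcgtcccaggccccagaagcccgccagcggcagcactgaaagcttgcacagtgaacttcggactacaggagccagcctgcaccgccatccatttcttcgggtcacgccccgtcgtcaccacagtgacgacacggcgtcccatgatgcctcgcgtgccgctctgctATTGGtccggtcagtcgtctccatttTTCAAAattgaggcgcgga
Of the non-overlapping proliferation genes, 10 had 1 promoter entry in the RefSeq table; 6 of them held TTTGAA or its reverse complement and 8 held CCAAT or its reverse complement. Among all 22862 promoters of genes with 1 entry, 16.7% held the first and 34.7% the second, among those of the genes analysed 10.2% and 36.6%, and among those of the lower members of all kinds 11.0% and 37.5%. The 3 shown were picked because they hold both. A match of letters is a description and no evidence that a factor binds.

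All 3 genes act in mitosis. Kif11, the kinesin that pushes spindle poles apart, was at 1.92, 1.08, 2.13 and 1.92 FPKM in the AROM and CERM columns and at 3.58, 2.89, 6.24 and 5.803 in those of WT and BRCA. Cdk1, the kinase that starts mitosis, was at 2.704, 1.94, 2.86 and 3.29 FPKM in the AROM and CERM columns and at 5.14, 3.88, 6.2003 and 5.98 in those of WT and BRCA, and Ccnb2, one of its cyclins, was at 3.24, 1.79, 4.99 and 4.65 FPKM in the AROM and CERM columns and at 6.4999, 5.93, 7.45 and 7.08 in those of WT and BRCA. BRCA was the highest genotype in each of them, and the WT paired-end value was the nearest to the AROM and CERM side. The ubiquitin-conjugating enzyme Ube2c, which helps the cell leave mitosis, had the widest gap of the list (0.37) and lay between 6.34 and 9.91 FPKM against between 13.1 and 18.2. Plk1, a mitotic kinase, lay between 1.35 and 2.43 FPKM against between 3.22 and 4.57 and the cyclin gene Ccna2 between 3.26 and 5.12 FPKM against between 6.21 and 12.6. The rest of the non-overlapping members were Ccnb1, Birc5, Mki67, Top2a, Aurkb and Tyms. The number depended on single columns, with 23 genes non-overlapping without WT paired-end and 18 without AROM single-end, and the median difference was -0.46 without both BRCA columns. Summed over the proliferation list, FPKM ranged from 127 to 197.1 in AROM and CERM and from 197.2 to 324 in WT and BRCA, so the sides nearly touched. Summed luminal marker levels were also lower in AROM and CERM, as given above, but the order within that side differed. AROM paired-end had the lowest sum of both lists. AROM single-end had the side's highest proliferation sum (197 FPKM), with a luminal sum (555 FPKM) below both CERM sums (719 and 684 FPKM). The part of luminal marker levels in the difference was not tested.

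Skeletal muscle genes were the most complete group on the higher side. Of 17 analysed, 13 were non-overlapping and higher in AROM and CERM, beside 5.73% of all genes, and none was lower. Muscle promoters often hold E-boxes bound by MyoD and its relatives, and the 250 bases before the start site of 3 of these genes that hold one are shown, 5′ to 3′, with the E-box CAGCTG in capitals.
Ckm (chr7:19410844-19411093, plus strand): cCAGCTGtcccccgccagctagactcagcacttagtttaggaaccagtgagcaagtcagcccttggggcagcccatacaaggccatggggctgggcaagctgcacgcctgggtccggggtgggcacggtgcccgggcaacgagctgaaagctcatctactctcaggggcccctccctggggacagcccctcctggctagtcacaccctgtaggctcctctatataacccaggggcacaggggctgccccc
Mylpf (chr7:127211358-127211607, plus strand): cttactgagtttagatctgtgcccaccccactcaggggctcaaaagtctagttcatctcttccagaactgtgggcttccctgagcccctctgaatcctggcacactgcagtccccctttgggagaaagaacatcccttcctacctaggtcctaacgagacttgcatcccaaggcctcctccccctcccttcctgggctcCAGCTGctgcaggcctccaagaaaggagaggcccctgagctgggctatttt
Pgam2 (chr11:5803797-5804046, minus strand): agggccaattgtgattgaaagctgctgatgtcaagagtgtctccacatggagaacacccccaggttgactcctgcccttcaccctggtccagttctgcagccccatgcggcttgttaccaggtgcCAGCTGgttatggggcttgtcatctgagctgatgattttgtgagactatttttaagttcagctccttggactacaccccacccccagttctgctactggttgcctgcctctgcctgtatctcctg
Of 8 non-overlapping muscle genes with 1 promoter entry, 6 held CAGCTG, a sequence that is its own reverse complement, beside 12.7% of all promoters of that length and 16.8% of those of the higher members. For MEF2 a single form of the motif was searched, CTA and TAG with 4 bases between them. This form was in 0 of the 8 (3.25% of all promoters). Other forms of the MEF2 site were not searched, so the count does not show that these promoters lack one. CCAAT, the box shown for the mitotic genes, was in 5.

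Mylpf, the fast muscle myosin light chain, was at 4456, 2934, 4039.6 and 3459 FPKM in the AROM and CERM columns and at 1386, 2204, 1601 and 1507 in those of WT and BRCA. Pgam2, the muscle phosphoglycerate mutase, was at 808, 538, 701 and 529.9 FPKM in the AROM and CERM columns and at 233, 393, 306 and 301 in those of WT and BRCA, and Ckm, muscle creatine kinase, was at 5292, 3589.7, 5689 and 4009.6 FPKM in the AROM and CERM columns and at 1766, 3081, 2287 and 2338 in those of WT and BRCA. In all 3 genes the sides stood further apart in the single-end columns than in the paired-end ones. Pvalb, a calcium buffer of fast fibres, lay between 1622 and 2709.8 FPKM against between 841 and 1206, the muscle enolase Eno3 between 757 and 1134 FPKM against between 341 and 559, and the fast troponin gene Tnni2 between 3014 and 4911 FPKM against between 1634 and 2409. The others were Tnnc2, Tnnt3, Myl1, Tcap, Actn3, Atp2a1 and Pygm. The list's median difference was 0.97, 1.43 in single-end and 0.50 in paired-end columns. Summed FPKM of the list ran from 30837 to 50308 in AROM and CERM and from 16722 to 27221 in WT and BRCA, so RNA of muscle was plentiful in every column. After quantile normalization 8 of the 17 were non-overlapping.

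Fat and nerve genes were next. All 13 white adipocyte genes analysed had a mean difference above 0, with a median of 0.63, but 2 were non-overlapping. Lep, the satiety hormone leptin of fat cells, was at 90.95, 115, 95.8 and 252 FPKM in the AROM and CERM columns and at 73.4, 54.2, 55.4 and 54.8 in those of WT and BRCA. Cfd, the adipocyte protease adipsin, was at 5198, 5829, 3228 and 2010.4 FPKM in the AROM and CERM columns and at 1947, 1961, 1487 and 1439 in those of WT and BRCA, and its sides overlapped under both median-ratio scaling and quantile normalization. The median was 0.41 without both BRCA columns. Relative to each gene's mean over the 8 columns, list medians were 0.36 (single-end) and 0.87 (paired-end) in AROM and -0.01 and 0.08 in CERM. They were 0.08 and -0.21 in WT and -0.57 and -0.64 in BRCA, so CERM lay below WT in the single-end columns. The number of non-overlapping fat genes was 7 without the single-end CERM column and 5 without the single-end WT column. Summed over the list, FPKM ranged from 15033 to 31857 in AROM and CERM and from 10329 to 17279.7 in the others. Of 7 Schwann cell genes, 3 were higher, among them the myelin gene Pmp22, which lay between 95.1 and 111 FPKM against between 49.7 and 79.96, and Prx, between 4.21 and 7.65 FPKM against between 2.24 and 3.84. The list's median difference of 0.46 was 0.23 without both BRCA columns. Sox10, a factor of Schwann cells that mammary epithelium also expresses, lay on the lower side, between 12.7 and 32.6 FPKM against between 38.2 and 41.8. Of 15 matrix genes 1, the dermatopontin gene Dpt, was higher (between 168 and 295 FPKM against between 97.2 and 129).

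**Figure D2:**
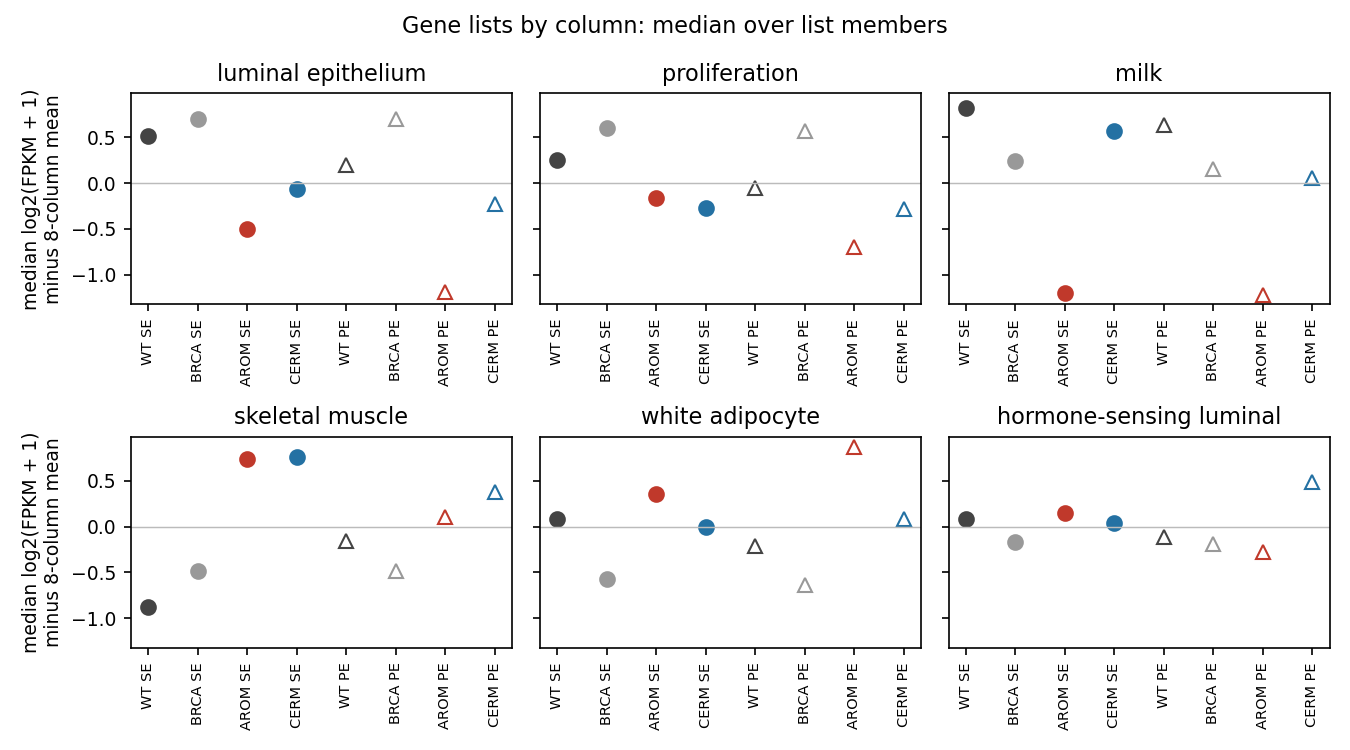
Median over the members of 6 gene lists of log2(FPKM + 1) minus each gene's mean over the 8 columns (y axis), for every column (x axis; SE, single-end; PE, paired-end; filled circles single-end, open triangles paired-end). AROM and CERM lie below WT and BRCA in the luminal and proliferation panels and above them in the muscle panel. For milk genes both AROM columns lie far below the other 6.

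Genes of hormone response lay on both sides. Of 11 genes of hormone-sensing luminal cells 2 were non-overlapping and higher, Esr1 and Tbx3, a T-box factor needed for mammary development, and none was lower. Tbx3 lay between 3.77 and 5.07 FPKM against between 3.37 and 3.56, and its sides overlapped after quantile normalization. The list's median difference was 0.22. Relative to each gene's mean over the 8 columns, list medians were 0.15 (single-end) and -0.28 (paired-end) in AROM and 0.04 and 0.49 in CERM. They were 0.08 and -0.12 in WT and -0.17 and -0.19 in BRCA, so the columns did not follow the sides. Pgr, the progesterone receptor gene, which estrogen induces, was at 1.496, 0.782, 1.14 and 2.19 FPKM in the AROM and CERM columns and at 1.92, 1.899, 0.654 and 0.667 in those of WT and BRCA; the sides overlapped.

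Of 13 estrogen response genes, 2 were higher and 2 lower, with a median of 0.09. Igf1, the insulin-like growth factor, was at 22.1, 23.9, 19.8 and 25.8 FPKM in the AROM and CERM columns and at 16.98, 12.6, 18.7 and 17.4 in those of WT and BRCA. Igfbp4, a protein that binds it, lay between 157 and 198 FPKM against between 94.3 and 151 and overlapped after quantile normalization. Myc, a growth-promoting transcription factor, was at 19.1, 11.8, 22.6 and 17.97 FPKM in the AROM and CERM columns and at 41.9, 37.6, 34.1 and 35.003 in those of WT and BRCA, a gap of 0.57. Ccnd1, the cyclin D1 gene of early cell cycle, was at 31.4, 20.4, 23.8 and 26.4 FPKM in the AROM and CERM columns and at 37.99, 34.2, 56.1 and 56.7 in those of WT and BRCA. Both Myc and Ccnd1 are also tied to proliferation in epithelium. The palindromic estrogen response element, GGTCA and TGACC with 3 bases between them, was not among the letters of the 250 bases before the start site of any of the 6481 analysed genes with 1 promoter entry; of all 22862 promoters of genes with 1 entry, 14 held it.

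Immune lists gave few members. Of 8 T cell genes 1, Cd4, was non-overlapping, although all 8 differences were below 0, with a median of -0.49 that was -0.20 without both BRCA columns; 3 genes were non-overlapping without the single-end CERM column. The B and plasma cell list had 1 of 6, Derl3, a factor of protein export from the endoplasmic reticulum, lower (between 1.16 and 1.82 FPKM against between 1.94 and 9.81). Its median difference of -1.04 was -0.12 without both BRCA columns, and 4 genes were non-overlapping without the paired-end WT column. Of the macrophage list 1 of 12, Cd14, was lower. None of 5 neutrophil, 6 mast cell or 7 MHC class II genes was a member. Of 15 interferon-stimulated genes 1 was, Ifi27l2a, on the higher side. Their position depended on the genotype compared. Without both WT columns 12 were lower, beside 33.7% of all genes (median difference -1.36). Without both BRCA columns 8 were higher, beside 10.3% of all genes (median 0.69). Ifi27l2a, a mitochondrial protein gene, was at 2555, 2839, 777 and 1008 FPKM in the AROM and CERM columns and at 609, 632, 678 and 631 in those of WT and BRCA; AROM was far above CERM, and the sides overlapped after quantile normalization.

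Lists of mitochondrial and stress genes gave few members. Of 60 oxidative phosphorylation genes, 2 were non-overlapping and higher, a share below the 5.73% of all genes. Yet 60 had a mean difference above 0, where 5139 of 11565 genes did. The median was 0.28, 0.11 without both BRCA columns and 0.10 after quantile normalization. Without the paired-end CERM column 10 genes were non-overlapping. Relative to each gene's mean over the 8 columns, list medians were 0.43 (single-end) and 0.52 (paired-end) in AROM. They were -0.06 and -0.28 in CERM, 0.01 and 0.03 in WT, and -0.27 and -0.39 in BRCA. CERM thus lay below WT in both layouts. The 2 members encode ATP synthase subunits: Atp5g1 lay between 181 and 262 FPKM against between 120.0 and 167 and Atp5c1 between 379 and 527 FPKM against between 298 and 374, and each overlapped under 1 other scaling. Of 51 mitochondrial ribosome genes, 2 were higher, Mrps12 and Mrpl16, and both overlapped under other scaling. Without the single-end CERM column 5 genes were higher, beside 7.89% of all genes. It was 4 without the single-end WT column, beside 9.37%, and 4 without the paired-end CERM column, beside 8.28%. Without both WT columns, where fewer columns let more genes pass, 28 oxidative phosphorylation and 25 mitochondrial ribosome genes were higher, beside 19.9% of all genes. Without both BRCA columns, 2 genes of each list were higher, beside 10.3% of all genes. The integrated stress response, which slows translation in stressed cells, had 1 gene of 14 higher, the transcription factor Atf5 (between 67.2 and 117 FPKM against between 58.03 and 61.9), and 1 lower, the proline synthesis gene Aldh18a1 (between 3.61 and 5.89 FPKM against between 7.604 and 9.898). Without the single-end CERM column 3 were higher. Of 14 clock genes 1, Npas2, was lower (between 0.692 and 1.46 FPKM against between 1.55 and 1.85). It overlapped after quantile normalization.

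In the hypoxia list 3 of 11 genes were higher, the glycolytic enzymes Ldha (between 861 and 1085 FPKM against between 649 and 714) and Pgk1 (between 232 and 278 FPKM against between 178 and 212) and the mitophagy receptor Bnip3 (between 149.9 and 226 FPKM against between 112 and 125), and the differentiation-related Ndrg1 was lower (between 51.8 and 77.2 FPKM against between 77.2 and 89.9), although its sides overlapped under median-ratio scaling. Of the glucocorticoid response list, 12 genes, the cell cycle inhibitor Cdkn1a was higher (between 23.8 and 36.1 FPKM against between 16.2 and 21.7) and Pdk4, which restrains pyruvate oxidation, lower (between 68.8 and 99.3 FPKM against between 104 and 241). Cdkn1a is also a p53 target; of 14 such genes it was the 1 higher one, and Perp, an adhesion gene, the 1 lower one (between 7.55 and 17.2 FPKM against between 18.3 and 24.7). Without the paired-end AROM column 5 of these targets were higher, beside 10.1% of all genes. Without the paired-end WT column 3 were lower, beside 16.9% of all genes. Of 9 homologous recombination genes 1, the repair gene Rbbp8, was lower (between 2.305 and 3.79 FPKM against between 3.96 and 6.34). In cholesterol synthesis Insig1, a brake on the pathway, was higher (between 66.6 and 124 FPKM against between 41.8 and 64.4) and Sqle, the squalene epoxidase, lower (between 8.17 and 10.7 FPKM against between 11.3 and 13.9). Of 27 splicing genes 1, the helicase Ddx17, was lower (between 30.5 and 35.8 FPKM against between 37.4 and 49.5). After quantile normalization 11 were lower, beside 11.3% of all genes, and under median-ratio scaling 6, beside 9.4%. Without the single-end AROM column it was 10, beside 11.1%, and without the paired-end WT column 7, beside 16.9%. None of 12 lipogenesis, 10 endothelial or 7 heat shock genes was non-overlapping. But 3 endothelial genes were higher without the paired-end AROM column, beside 10.1% of all genes. Leaving out the single-end AROM column made 2 heat shock genes lower, beside 11.1% of all genes. Single members came from the brown adipocyte (Elovl3), smooth muscle (Des), immediate early (Dusp1) and cytosolic ribosome (Rps14) lists, all on the higher side; Des and Rps14 overlapped after quantile normalization. Without the paired-end AROM column 4 of 7 smooth muscle genes were higher, beside 10.1% of all genes. Without the single-end WT column 4 of 44 cytosolic ribosome genes were higher, beside 9.37% of all genes.

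AROM and CERM were not alike among the members. Of the 838 lower genes, AROM was below CERM in both layouts for 515 (61.5%) and above it in both for 65, while over all genes these shares were 40.4% and 28.9%. The median distance from the mean of WT and BRCA was -0.58 (log2) in AROM and -0.39 in CERM. At least 1 log2 unit separated 168 genes in AROM and 31 in CERM. Besides Glycam1 and Wap, the lower gene with the greatest distance between AROM and CERM was Cited4, a transcriptional coactivator, at 13.7, 8.34, 38.6 and 27.1 FPKM in the AROM and CERM columns and at 61.3, 55.4, 44.6 and 45.2 in those of WT and BRCA. Among the higher genes the medians were 0.50 in AROM and 0.43 in CERM, with AROM above CERM in both layouts for 258 of 663 and below it in both for 180. At least 1 log2 unit separated 55 of these genes in AROM and 64 in CERM. Those furthest apart, beside Ifi27l2a, were higher in CERM: the perinatal myosin Myh8 was at 2.93, 1.36, 9.18 and 6.35 FPKM in the AROM and CERM columns and at 0.982, 0.9198, 1.04 and 0.448 in those of WT and BRCA, and Myoc, the myocilin gene, was at 3.87, 3.57, 11.6 and 7.65 FPKM in the AROM and CERM columns and at 0.416, 0.687, 3.32 and 3.26 in those of WT and BRCA.

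**Figure D3:**
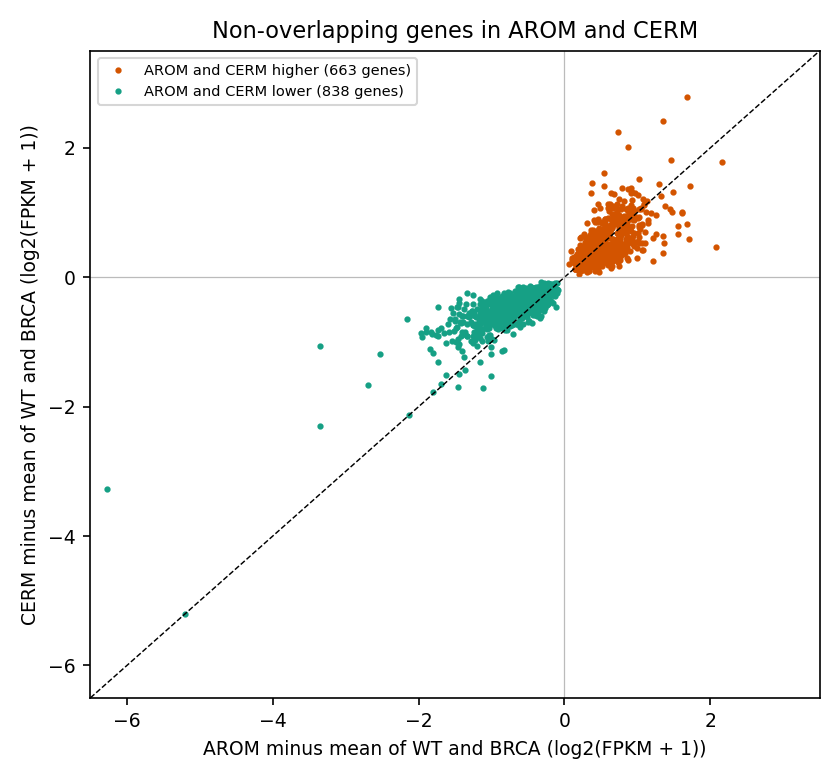
Distance of AROM (x axis) and of CERM (y axis) from the mean of WT and BRCA (log2(FPKM + 1), both layouts averaged), for the 663 higher and 838 lower members, with a dashed line of equality. By selection all points lie in 2 quadrants; most lower members lie above the line, nearer to 0 in CERM (median -0.39) than in AROM (median -0.58).

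The nearest columns show which values limited the choice. Among the lower members, the WT paired-end column was the lowest of its side for 614 of 838 genes, and CERM single-end the highest of its side for 464. Among the higher members, AROM paired-end was the lowest of its side for 263 genes, and the 2 WT columns together were the highest of theirs for most (250 paired-end and 240 single-end). BRCA was above WT in both layouts for 537 of the 838 lower and 144 of the 663 higher members, where the share over all genes analysed was 49.7%.

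On the chromosomes the members were spread widely. Of the genes analysed, 10381 could be placed in order by RefSeq symbol, and the longest runs of consecutive analysed genes on the same side held 3 genes. There were 9 such runs, 2 of higher and 7 of lower genes, among them Pgap3, Erbb2 and Grb7 on chromosome 11, of which Erbb2 encodes the HER2 receptor kinase, and Foxq1, Foxc1 and Gmds on chromosome 13. The share of higher genes ranged from 2.53% on chromosome 17 to 9.02% on chromosome 19, and that of lower genes from 4.11% on chromosome 16 to 10.4% on chromosome 15.

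At the edge of the definition the sides touched. The last members inside were Snapin (between 24.1 and 28.1 FPKM against between 20.04 and 24.1) and Adssl1 (between 115 and 197 FPKM against between 69.9 and 115) on the higher and Sh3bp1 (between 3.74 and 5.36 FPKM against between 5.36 and 10.4) and Gcc1 (between 3.496 and 5.26 FPKM against between 5.26 and 6.26) on the lower side. Snapin and Gcc1 overlapped under median-ratio scaling, and Snapin and Adssl1 after quantile normalization. The first genes outside were Snx33 (between 6.23 and 6.75 FPKM against between 5.47 and 6.23) and Cog7 (between 9.09 and 11.1 FPKM against between 8.28 and 9.098), and Sh3tc2 (between 1.52 and 2.63 FPKM against between 2.63 and 3.85) and Iqgap3 (between 0.738 and 1.48 FPKM against between 1.48 and 4.02). Of the members, 54 higher and 60 lower ones had names without a known identity, and 1 on each side was listed at 0 in some columns, Klk1b22 and the microRNA locus Mir3096b.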

How the data were processed

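Whole mammary gland RNA was sequenced in 17 libraries. The submitters' processing notes name TopHat and Cufflinks beside FastQC and Trim Galore, and the build mm9; their versions and how libraries were pooled into columns are not given there. The authors deposited 1 table of FPKM values (fragments per kilobase of transcript, scaled to the mapped total), with 30843 loci and 8 pooled columns, and no counts, so depth and counting error are unknown. FPKM is scaled by each column's total, so a few very abundant transcripts shift all other values; strand handling is not given, and overlapping or near-identical genes may share reads.

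Loci with 1 symbol of their own (20420) and FPKM of at least 1 in 4 or more columns were kept, 11565 genes. Values were compared as log2(FPKM + 1), which makes ratios of low genes look smaller. A gene was a member when all 4 AROM and CERM values exceeded all 4 WT and BRCA values or the reverse. Genes that reached 1 FPKM in the 4 columns of 1 side alone passed the filter only through that side, so their sides could not overlap. Among them were Unc5a, Klk1b22, Fbxo44 and Rasgef1c on the higher side and Ccl20, Msln, Spib, Il23a, Tnf and Tnfrsf11b on the lower side. No test was run, since columns pool libraries and the members are chosen by their values. The calculation was tested on simulated data with independent columns and larger differences than most members had. That test checked the code and gives no assurance about these columns. Gene lists were described by counts and medians beside those of all genes. The members and lists were chosen with earlier results of these data known.

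Named genes were the 15 widest gaps a side (leaving out names without a known identity and genes listed at 0, of which at most 5 were given), up to 4 members of each list and direction, the engineered genes with Pgr, the genes at the edge, and up to 3 a direction with AROM and CERM furthest apart; a few others were chosen after their values were seen (Cdk1, Ccnb2, Ckm, Csn2, Lalba, the genes of the closing section and the remaining list members and neighbours named without values). A few genes that this rule names are not reported here. Promoters are RefSeq's, GRCm38.p6; 816 of the 1501 members had 1 entry. Motifs were searched on both strands of the 250 bases before the start site; besides those printed, AACCNGTT and TATAAA were searched, and the motifs were chosen after the members were known. Alternatives were another pseudocount and filter, median-ratio and quantile scaling, single layouts and left-out columns. Python 3.11.15 with pandas 2.3.3 was used.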

Additional observations from a re-analysis of the deposited data

Results flagged for a closer look

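Loci without a gene name were outside the genes described, and some were far higher in AROM and CERM than in WT and BRCA, which were at or near 0. The unnamed locus XLOC_006497 was at 35.5, 56.8, 36.6 and 112 FPKM in the AROM and CERM columns and at 0, 0, 0 and 0 in those of WT and BRCA, so its lowest AROM and CERM value was 35.5 FPKM where the other 4 columns were listed at 0. XLOC_000854 was at 11.03, 16.5, 7.65 and 30.2 FPKM in the AROM and CERM columns and at 0.132, 0, 0.0978 and 0.05198 in those of WT and BRCA, with a lowest AROM and CERM value of 7.65 FPKM. Another such locus was listed at 0 in all 4 WT and BRCA columns and ranged from 6.297 to 302 FPKM in AROM and CERM. Of 1148 unnamed loci with FPKM of at least 1 in 4 or more columns, 2.61% were higher and 4.7% lower in all AROM and CERM columns, and 4 of the 30 higher loci had a gap of at least 1 against 2 of 663 named genes. On the lower side it was 2 of 54 loci against 5 of 838 named genes. The loci described here, like Unc5a and Klk1b22, reached 1 FPKM in the AROM and CERM columns alone. They passed the filter only through the side where they were high, so their sides could not overlap, and the counts of wide gaps support nothing. What these loci are was not tested, since the table gives no coordinates.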

How the results depend on the processing

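The numbers of members, 663 higher and 838 lower, depended on which columns had to be separated, and fewer columns let more genes pass by construction. The single-end columns alone gave 2001 and 2769, the paired-end columns alone 1766 and 2576, and columns without both WT values 2303 and 3894; without both BRCA values 1187 were higher. Separation within each layout gave 1515 lower genes. Leaving out single columns gave between 685 and 1167 higher and between 874 and 1952 lower genes; those that moved a number by over 1.5 times were WT single-end (1084 higher), AROM paired-end (1167 higher), WT paired-end (1952 lower), AROM single-end (1283 lower) and CERM single-end (1356 lower). Lower genes numbered 1312 after quantile normalization and 484 with FPKM of at least 5 in 4 columns, where fewer genes were tested. Of the members, 613 higher and 740 lower ones were kept under median-ratio scaling and 476 and 692 after quantile normalization. Of 91 named members, 7 overlapped under median-ratio scaling and 12 after quantile normalization, and none changed sides. With a pseudocount of 0.1 the membership was the same, and 11 of the 15 highest-ranked higher and 12 of the 15 lower genes were shared. No paired analysis was possible because the columns pool libraries and carry no replicate numbers; matching by read layout is the separation within each layout given above. The unknown depth limits what can be read from values near 0.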

Other observations

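Transcription factors of mammary epithelium, genes of the NF-kB pathway, genes of lymphoid tissue and glycolytic enzymes were also among the members. The 4 lists here were put together after the members were known, so their counts are descriptions that support nothing. Of 18 transcription factors analysed, 11 were non-overlapping and lower in AROM and CERM, none was higher, and the median difference was -0.91 (log2). Sox9, a factor of mammary stem and progenitor cells, was at 7.36, 4.55, 9.596 and 7.96 FPKM in the AROM and CERM columns and at 15.7, 15.2, 17.2 and 17.99 in those of WT and BRCA. Foxc1, a forkhead factor, was at 2.58, 1.43, 2.72 and 2.36 FPKM in the AROM and CERM columns and at 5.38, 4.46, 6.001 and 6.12 in those of WT and BRCA, and Tcfap2a, the AP-2 alpha gene, was at 5.51, 3.18, 6.84 and 5.45 FPKM in the AROM and CERM columns and at 10.9, 10.7, 10.4 and 10.3 in those of WT and BRCA. In each, AROM paired-end was the lowest column. The others were Myc, Foxq1, Tcfap2c, Bcl11a, Sox10, Cited4, Ehf and Elf5. Foxa1, a partner of estrogen receptor in hormone-sensing cells, was at 7.84, 4.68, 7.71 and 11.5 FPKM in the AROM and CERM columns and at 8.003, 6.33, 5.82 and 5.51 in those of WT and BRCA, and its sides overlapped, with a difference of 0.22.

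Genes of the NF-kB pathway, which relays inflammatory and lymphoid signals, were lower in 6 of 19 cases, with a median of -0.36. Relb, the subunit of the non-canonical arm, was at 10.9, 8.903, 10.6 and 8.53 FPKM in the AROM and CERM columns and at 15.7, 14.4, 15.3 and 15.5 in those of WT and BRCA, and its partner Nfkb2 was at 14.3, 10.1, 15.2 and 12.6 FPKM in the AROM and CERM columns and at 21.9, 19.3, 24.9 and 25.2 in those of WT and BRCA. The cytokine gene Tnf lay between 0.433 and 0.797 FPKM against between 1.13 and 1.88, and Bcl3, Traf2 and Birc2 were the other members. Tnf reached 1 FPKM in the WT and BRCA columns alone, so its sides could not overlap. Without the paired-end WT column 11 genes of the list were non-overlapping and lower, beside 16.9% of all genes. Of 12 genes of lymphoid tissue and antigen sampling 6 were lower, Glycam1, Ccl20, Spib, Cd4 and Il23a with Tnfrsf11b, the decoy receptor of RANK ligand (between 0.521 and 0.918 FPKM against between 1.56 and 3.13). Of these, Ccl20, Spib, Il23a and Tnfrsf11b reached 1 FPKM in the WT and BRCA columns alone, so their sides could not overlap.

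On the higher side, 6 of 17 glycolytic enzymes were non-overlapping, among them Tpi1, triosephosphate isomerase, at 634, 621, 581 and 539 FPKM in the AROM and CERM columns and at 343, 401, 329 and 325 in those of WT and BRCA, and Pfkm, the muscle phosphofructokinase, at 305, 209, 319.6 and 238 FPKM in the AROM and CERM columns and at 104, 164, 157 and 155 in those of WT and BRCA. Of these 6, Eno3, Pgam2 and Pfkm are muscle forms, while Tpi1, Ldha and Pgk1 are expressed widely. Summed muscle marker levels were also higher in AROM and CERM, as given in the report, but the order within that side differed. AROM paired-end had the side's highest summed FPKM of glycolytic enzymes (7154) and its lowest of muscle markers (30837). The part of muscle markers was not tested. Without the paired-end CERM column 10 of the enzymes were non-overlapping.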
